A study of Mus musculus with 6 samples.

Results

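The genes described here are 10 genes that process prohormones or build the core of secretory granules, namely Pcsk1, Pcsk2, Pcsk1n, Cpe, Pam, Scg2, Scg3, Scg5, Chga and Chgb. They were taken by gene name from a count table of 54532 genes, and all 10 had a row of their own. RNA was sequenced from mouse Glu-tag cells, an enteroendocrine line known for making proglucagon-derived hormones and given by the submitters the tissue small intestine. There were 3 libraries of cells with a control hairpin and a wild-type genotype label, called shControl, and 3 of cells with a stable hairpin against Irs2, called shIRS2. Irs2 encodes a substrate of the insulin and IGF receptors. Whether a line was 1 clone or a pool is not given in the sources used here.

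The data did not match the labels for the hairpin target, and for the labelled cell type most enteroendocrine markers were at trace level or not detected. Irs2 RNA stood at 29.5 ± 6.05 CPM (counts scaled to the library total) in shControl and 32.9 ± 5.22 CPM in the libraries labelled shIRS2 (SD, n = 3 each), and was not lower there. Its log2 fold change was 0.17 (SE 0.16), at an edgeR adjusted p of 1.00. The name shIRS2 therefore stands throughout for the label only. Of 12 enteroendocrine markers 3 were present (Ptprn at 28.4 FPKM, Pax6 at 2.02 and Nkx2-2 at 1.1, where FPKM is scaled to gene length as well), 3 were at trace level and 6 were not detected. Over all protein-coding genes 49.6% were present, meaning a mean of at least 1 CPM in both groups. Gcg, Pyy, Chga and Neurod1 had 0 counts in all 6 libraries, and Chga is itself among the 10 genes.

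Endocrine cells make peptide hormones from longer precursors. In the immature secretory granule the convertases encoded by Pcsk1 and Pcsk2 cut the precursor after pairs of basic residues, carboxypeptidase E removes the basic residues left at the new end, and the amidating enzyme encoded by Pam turns a terminal glycine into an amide. Granins such as chromogranin A aggregate with the hormones and pack the dense core, and they are widely used as markers of neuroendocrine cells and tumours. In gut L cells, the type from which Glu-tag cells were derived, the Pcsk1 product is known for releasing GLP-1 from proglucagon.

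Only the trimming and amidating enzymes of this set had sizeable RNA in the 6 libraries. A gene was called present at a mean of at least 1 CPM in both groups, trace below that with more than 3 counts over the 6 libraries, and not detected at 0 to 3 counts. By that rule 2 of the 10 genes were present (Cpe and Pam), 4 were trace (Pcsk2, Scg3, Scg5 and Chgb) and 4 were not detected (Pcsk1, Pcsk1n, Scg2 and Chga). For comparison, 49.6% of all protein-coding genes were present. The 8 genes other than Cpe and Pam held 50 counts together, which was 0.103% of the 48407 counts of the 10 genes. In bulk RNA, fewer cells with a transcript and less of it per cell cannot be told apart.

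**Figure D1:**
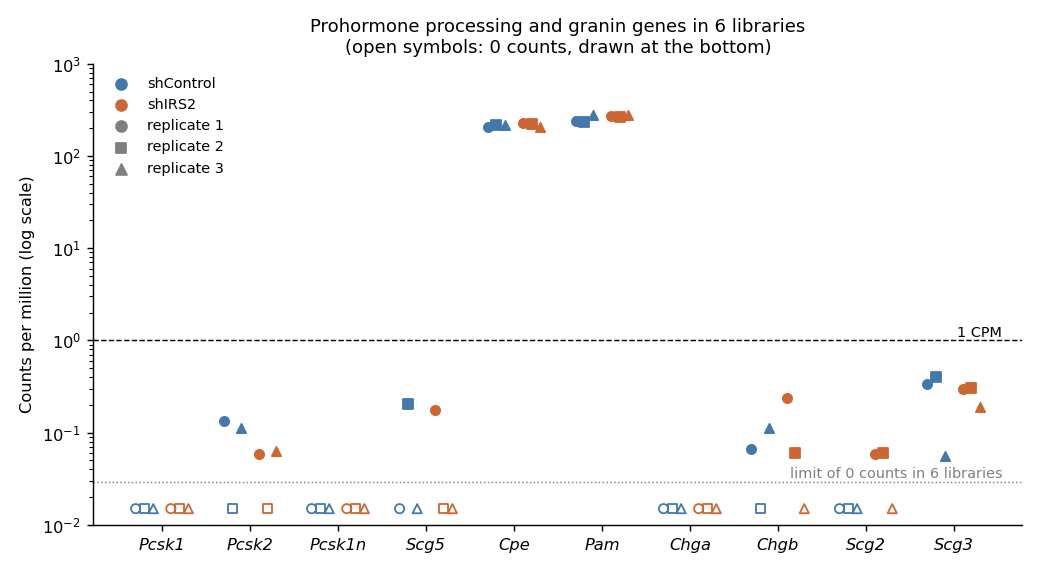
CPM (log axis) of the 10 genes in each of the 6 libraries, by group (colour) and replicate number (symbol), with 0 counts drawn as open symbols at the bottom. Cpe and Pam lie between 205 and 280 CPM, and every value of the other 8 genes lies under the dashed line at 1 CPM.

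Upstream sequences of genes with and without RNA are shown first, because several genes of this set share a short promoter element that answers to cyclic AMP signalling in endocrine cells. The sequences are from RefSeq, build GRCm38.p6, which is the mm10 assembly, in windows of 250 bases before to 50 after the start site. Of the 10 genes 9 had a window, and Cpe had no entry. The palindrome TGACGTCA, the cyclic AMP response element, was found in Pcsk1, Scg2 and Chgb, at positions -78, -68 and -72 from the RefSeq start. The windows of 30 bases around it are at chr13:75089768-75089797 (plus strand), chr1:79440076-79440105 (minus strand) and chr2:132781559-132781588 (plus strand), with the element in capitals. Chga held only the shorter core TGACG, at position -44, shown in capitals in chr12:102554885-102554914 (plus strand).
Pcsk1: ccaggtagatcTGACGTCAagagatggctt
Scg2: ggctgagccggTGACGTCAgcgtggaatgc
Chgb: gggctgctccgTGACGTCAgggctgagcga
Chga: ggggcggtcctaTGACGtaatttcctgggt

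The palindrome occurred in 1.79% of 32851 windows of the same length, and in 3 of the 8 windows of trace or undetected genes. The core TGACG was searched on both strands, and its matches include those inside the palindrome. It occurred in 20.8% of all windows, in 7 of these 8 and in 0 of the windows of Pam. Pam was the only present gene with a window, so that windows of present and low genes could not be compared. Creb1, which encodes a factor known to bind this element, was expressed at 7.13 ± 0.344 FPKM (mean ± SD, n = 3) in shControl and 7.51 ± 0.477 FPKM in shIRS2.

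The 150 bases before the outermost annotated start are given for Pcsk1, which had 0 counts, at chr13:75089676-75089825 (plus strand), and for Pam, the only present gene with a window, at chr1:98095647-98095796 (minus strand). Capitals mark TGACGTCA and TGACG.
Pcsk1: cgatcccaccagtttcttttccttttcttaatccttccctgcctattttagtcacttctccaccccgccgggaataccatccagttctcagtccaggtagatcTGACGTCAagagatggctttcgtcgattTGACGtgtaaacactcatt
Pam: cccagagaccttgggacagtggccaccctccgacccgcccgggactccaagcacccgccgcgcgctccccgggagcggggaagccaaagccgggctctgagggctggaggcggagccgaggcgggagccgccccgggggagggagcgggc

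The Pam stretch held 16 CpG pairs and the Pcsk1 stretch 7. Over the window of 300 bases the GC share was 76.3% in the first of the Pam windows and 49.3% in Pcsk1, against a median of 52.7% over all windows. The windows of the 8 trace or undetected genes ran from 49.3% in Pcsk1 to 76.3% in Pcsk2. A CpG-rich window was not particular to the present gene. The observed over expected CpG ratio was above the upper quartile of all windows, 0.750, in Pam and in 5 of the 8 trace or undetected genes, among them Pcsk2 at 0.854 and Scg2 at 0.856. These matches and shares describe the windows only.

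The convertases that start hormone processing had almost no RNA. Pcsk1 (chr13:75089826-75134861 in mm10) had 0 counts in all 6 libraries. Over the 101561149 counts of the 6 libraries this allows a level of up to 0.0295 CPM, taken as 3 counts, and all intervals and limits here cover counting error only. Pcsk2 (chr2:143546156-143816285) had 2, 0 and 2 counts in the shControl libraries numbered 1 to 3 and 1, 0 and 1 in the shIRS2 libraries. Pooled over the 6 libraries Pcsk2 stood at 0.0591 CPM (exact Poisson 95% interval 0.0217 to 0.129). Both libraries numbered 2 had 0 counts and each of the others 1 or 2.

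The partners of these convertases were as low. Pcsk1n (chrX:7919822-7924410), whose product proSAAS inhibits the Pcsk1 convertase, had 0 counts in all 6 libraries. Scg5 (chr2:113776362-113829121) encodes the chaperone that the Pcsk2 convertase needs to become active. It had 4 counts in the shControl library numbered 2, 3 in the shIRS2 library numbered 1 and 0 in the other 4. Its pooled level was 0.0689 CPM (exact Poisson 95% interval 0.0277 to 0.142). The 2 libraries with counts lay in different groups and had different numbers.

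Granins followed the convertases rather than the trimming enzymes. Chga (chr12:102554969-102565028), which encodes chromogranin A, had 0 counts in all 6 libraries. Chgb (chr2:132781278-132795079), which encodes chromogranin B, had 1, 0 and 2 counts in shControl and 4, 1 and 0 in shIRS2, with a pooled level of 0.0788 CPM (exact Poisson 95% interval 0.0340 to 0.155). Scg2 (chr1:79434669-79440120), the precursor of secretoneurin, had 0 counts in shControl and 1, 1 and 0 in shIRS2. None of these counts separated the groups.

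Scg3 was the highest of the trace genes and the only one with a count in every library. Scg3 (chr9:75643189-75684056) encodes a granin that tethers chromogranin A to granule membranes. It had 5, 8 and 1 counts in shControl and 5, 5 and 3 in shIRS2, or 14 against 13 in all. Its pooled level was 0.266 CPM (exact Poisson 95% interval 0.175 to 0.387). Per length its interval was 0.0640 to 0.141 FPKM. That lies above the upper bound for Pcsk2, 0.0163 FPKM, but overlaps the interval for Scg5, 0.0177 to 0.0905 FPKM. The lowest and the highest count both came from shControl, so that the groups overlap.

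Per length, Cpe stood far above the undetected genes. In pooled FPKM, Cpe was at least 15683-fold higher than Pcsk1, at least 7713-fold higher than Chga and at least 6137-fold higher than Pcsk1n, with 3 counts over the 6 libraries in place of 0. Cpe was 851-fold higher than Scg3 (95% interval from the counts of Scg3 585 to 1292) and 10557-fold higher than Scg2 (2923 to 87176). These ratios compare RNA and not enzyme.

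**Figure D2:**
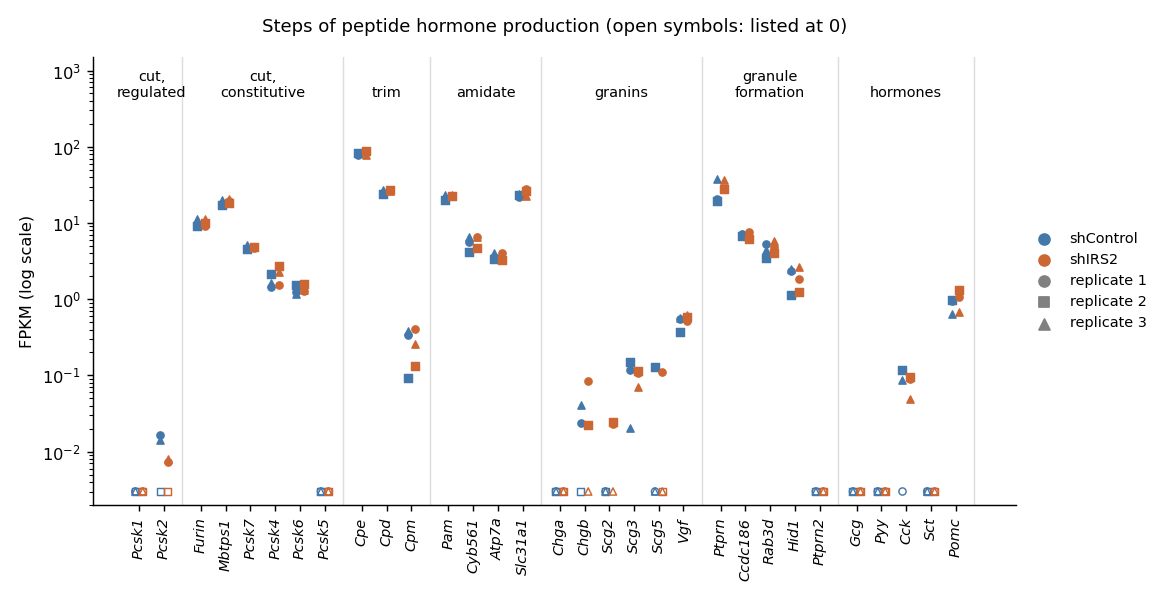
FPKM (log axis) in each of the 6 libraries for genes ordered by their step in peptide hormone production, by group (colour) and replicate number (symbol), with values listed at 0 as open symbols at the bottom. Cpe, Cpd, Pam and the constitutive convertases Furin and Mbtps1 lie well above Pcsk1, Pcsk2 and the granins.

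Cpe was highly expressed for a gene of the regulated route. Cpe (chr8:64592542-64693054) had 208, 216 and 215 CPM in the shControl libraries and 225, 223 and 205 CPM in the shIRS2 libraries. The lowest and the highest value both came from shIRS2, so that the groups overlap. In FPKM the means were 81.0 ± 2.73 and 83.6 ± 4.73 (SD, n = 3 each). Over the 6 libraries Cpe ranked 509 by mean FPKM among 22046 protein-coding genes.

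Pam was present at a similar count and a lower level per listed length. Pam (chr1:97795114-98095646) had 240, 235 and 275 CPM in shControl and 272, 264 and 280 CPM in shIRS2. The shControl library numbered 3 lay among the shIRS2 libraries and the other 2 shControl libraries lay below all of them. In FPKM the means were 20.9 ± 1.82 in shControl and 22.9 ± 0.451 in shIRS2 (SD, n = 3 each), and Pam ranked 2520 among the protein-coding genes.

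The gap between Cpe and Pam depends on the gene length used. The authors' FPKM divides Pam by a listed length of 11892 bases, while the longest of its 6 coding transcripts in GENCODE M21 has 4102, and for Cpe the lengths are 2609 and 2117. With the listed lengths the mean over the 6 libraries was 82.3 FPKM for Cpe and 21.9 for Pam. With the longest coding transcripts it was 101 and 63.4 FPKM. Annotated genes on the same strand inside Pam held 848 (Gm3531, a processed pseudogene), 134 (B230216N24Rik) and 34 counts (Gm37140) beside the 26453 of Pam. How reads shared with them were counted is not given in the sources used here.

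Few genes of any kind separated the groups. Library totals ran from 14991019 to 19790073 counts. Of 13472 genes tested, edgeR called 0 between the groups at an adjusted p of 0.05, which is 0% of genes. Without adjustment 262 genes (1.94%) had a p under 0.05. DESeq2 called 2 genes, Gm44126 and Gm2446, which were chosen here for that call. When the replicate number was a block, edgeR called 1 gene, Gm44126 (0.00742%), and 1234 genes had an unadjusted p under 0.05 (9.16%).

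Between the libraries labelled shIRS2 and shControl, neither present gene of the set passed at an adjusted p of 0.05. Only Cpe and Pam passed the filter on low counts, and the other 8 genes were not tested. Cpe changed by 0.05 on the log2 scale (SE 0.08) and its 95% interval ran from -0.14 to 0.23 (edgeR, adjusted p = 1.00). The interval spans 0.908-fold to 1.17-fold. With the replicate number as a block Cpe changed by 0.04 (SE 0.06, 95% interval -0.09 to 0.17, edgeR adjusted p = 0.865). The exact permutation test of log2 CPM gave a two-sided p of 0.6, where 3 libraries against 3 allow no p below 0.1. By replicate number the log2 ratios of shIRS2 to shControl were 0.14, 0.06 and -0.07.

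Pam leaned higher in the libraries labelled shIRS2 without passing the test. It was higher by 0.13 on the log2 scale (SE 0.09) and its 95% interval ran from -0.06 to 0.33 (edgeR, adjusted p = 1.00; exact permutation p = 0.3). The 3 numbered log2 ratios were 0.20, 0.18 and 0.03. In the blocked fit Pam was higher by 0.14 (SE 0.06), and its unadjusted 95% interval, from 0.009 to 0.26, left out 0. Its edgeR p in that fit was 0.0370 before and 0.504 after adjustment over all genes. By comparison, 9.16% of all genes reached an unadjusted p under 0.05 in that fit. Without the shControl library numbered 3 the log2 fold change was 0.20 for Pam, at an adjusted edgeR p of 0.955. The summed level of 16 fibroblast markers lay wholly higher in shIRS2 (4047 to 4154 CPM) than in shControl (3354 to 4031 CPM). The sums of the enteroendocrine, epithelial, neural and immune marker lists overlapped between the groups. Vim, the highest of the fibroblast markers, also lay wholly higher (413 to 438 against 376 to 394 FPKM). Over all genes tested 3.26% lay wholly higher in shIRS2, which is a share of single genes and not of list sums. Of the 11 tested fibroblast markers 8 had a positive log2 fold change and 3 a negative one, and 0 passed between the groups. Their part in the level of Pam was not tested.

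**Figure D3:**
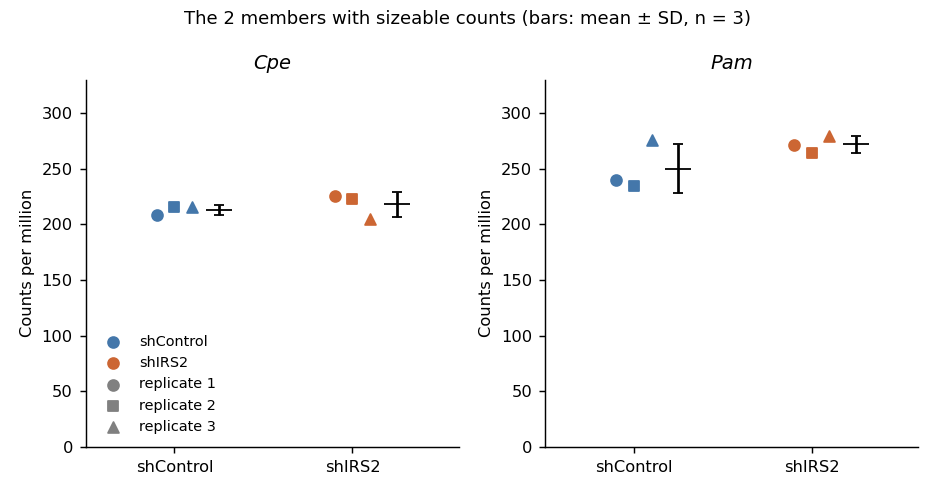
CPM of Cpe and Pam in each library, by group (colour) and replicate number (symbol), with mean ± SD (n = 3) beside the points on axes that start at 0. The groups overlap for both genes.

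Of the 2 tested genes of the set, 0 had groups that did not overlap. Over all genes tested 3.26% lay wholly higher and 3.09% wholly lower in shIRS2.

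The summed level of the 10 genes was 464 ± 23.8 CPM in shControl and 490 ± 6.65 CPM in the libraries labelled shIRS2 (SD, n = 3 each), with an exact permutation p of 0.3. The 8 low genes together had 8, 12 and 5 counts in shControl and 14, 7 and 4 in shIRS2, with an exact permutation p of 1.0. A difference between the groups in these 8 genes was not detectable at this depth.

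Convertases outside the regulated granule were present in part. Of 7 other convertases 5 were present, 1 was trace and 1, Pcsk5, had 0 counts in all 6 libraries. Over all protein-coding genes 49.6% were present. Furin, the convertase of the Golgi and the constitutive route, had 9.68, 9.18 and 11.1 FPKM in shControl and 9.01, 10.1 and 11.3 in shIRS2. Mbtps1 encodes the site-1 protease, a family member that does not need paired basic residues and releases membrane-bound transcription factors. It had 18.3 ± 1.57 and 19.7 ± 1.17 FPKM (SD, n = 3 each). Pcsk7, a membrane-bound convertase, stood at 4.77 ± 0.391 and 4.77 ± 0.0446 FPKM. In all 6 libraries Furin was over 9 FPKM, while Pcsk1 was listed at 0.

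Further enzymes for trimming and for the supply of Pam were also present, 8 of 12 in the list, beside 49.6% over all protein-coding genes. Cpd, the carboxypeptidase of the Golgi that acts like carboxypeptidase E, stood at 25.1 ± 1.45 FPKM in shControl and 26.5 ± 0.428 in shIRS2 (SD, n = 3 each). Pam needs copper and a reduced electron donor. The copper importer gene Slc31a1 stood at 23.4 ± 1.07 and 25.6 ± 2.64 FPKM, and the Golgi copper pump gene Atp7a at 3.65 ± 0.315 and 3.75 ± 0.384 (SD, n = 3 each). Cyb561, which passes electrons into granules, had 5.59, 4.12 and 6.64 FPKM in shControl and 6.53, 4.69 and 6.57 in shIRS2. Ctsl, a lysosomal protease also reported to cut hormone precursors, was the highest of the list at 145 FPKM over the 6 libraries. Between the groups 0 of the 9 tested genes of the list and 0 of the 5 other convertases passed.

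Genes for hormone precursors and amine synthesis were mostly at trace level or undetected. Of 31 precursor and amine synthesis genes with a row, 3 were present, 6 were trace and 22 had 0 to 3 counts, with 20 of these at 0 in all libraries. By comparison 49.6% of all protein-coding genes were present. Gcg, the proglucagon gene that defines the line, had 0 counts in all 6 libraries, and so had Pyy and Sct. The present genes were Pomc at 0.932 FPKM, Tph1 at 0.664 and Vgf at 0.534 as means over the 6 libraries. Ghrl, the ghrelin precursor gene, had 0.737 FPKM and 83 counts, above Tph1 and Vgf per length, although its CPM put it in the trace class. Vgf, a granin relative, had 22 to 30 counts in each library. Tph1, the enzyme that begins serotonin synthesis, had 45 to 107 counts per library, while Ddc, which completes it, had 0 in all.

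Of 18 precursors cut by constitutive convertases 12 were present, 3 were trace and 3 were not detected, beside 49.6% present over all protein-coding genes. Mmp14, a membrane metalloproteinase, stood at 24.2 ± 2.40 FPKM in shControl and 28.9 ± 1.77 in shIRS2, and Lrp1, an endocytic receptor, at 23.2 ± 6.58 and 25.7 ± 4.29 (SD, n = 3 each). Met, the receptor of hepatocyte growth factor, had 17.4 and 18.5 FPKM in the libraries numbered 2 and 11.3 to 12.2 FPKM in the other 4. Igf2 and Bmp4 had 0 counts in all 6 libraries. Among the 12 tested genes 0 passed between the groups.

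Granule formation factors were present at about the share of all protein-coding genes, 11 of 22 beside 49.6%, with 5 trace and 6 not detected. Ptprn, a membrane protein of dense-core granules, had 20.9, 19.7 and 37.6 FPKM in shControl and 27.7, 28.1 and 36.7 in shIRS2. Both libraries numbered 3 were high for it and the groups overlap. Its relative Ptprn2 had 0 counts in all 6 libraries. Ccdc186, a factor for granule maturation, stood at 6.97 ± 0.219 FPKM in shControl and 6.78 ± 0.786 in shIRS2 (SD, n = 3 each). The small GTPase genes Rab3d and Rab27a stood at 4.63 and 3.29 FPKM over the 6 libraries. Cadps2, a priming factor, and the Rab effector genes Sytl4 and Sytl5 had 0 counts in all.

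The genes listed here for the general secretory pathway were all present where they had a row, which covers these chosen lists only. All 22 genes for entry into the endoplasmic reticulum, all 19 coat genes and all 17 proton pump genes with a row were present. Their median level was 32.9 FPKM for the first list and 25.7 FPKM for the pump. The highest of each list were Ssr3, a translocon-associated subunit, at 159 FPKM, Copa, a subunit of the COPI coat, at 61.9 and Atp6v1g1, a pump subunit, at 101, as means over the 6 libraries. Median log2 fold changes of shIRS2 against shControl were 0.03, 0.03 and 0.04, beside -0.00 over all genes tested, and 0 genes of these 3 lists passed.

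**Figure D4:**
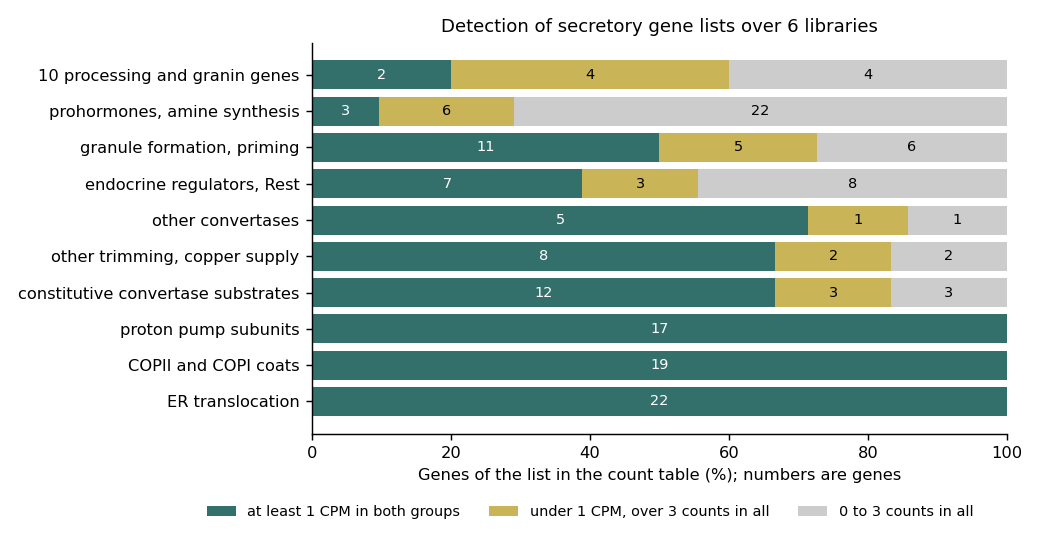
Share of each gene list (percent of the genes in the count table) that was present, trace or not detected over the 6 libraries, with the number of genes written in each bar. The 10 processing and granin genes and the prohormone and amine synthesis genes are mostly trace or undetected, and the 3 lists of the general secretory pathway are present throughout.

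Of 18 regulators of endocrine genes, 7 were present, beside 49.6% of all protein-coding genes. Rest, the repressor known for silencing granin and other neuronal genes outside neurons and endocrine cells, stood at 18.5 ± 1.87 FPKM in shControl and 17.8 ± 1.14 in shIRS2 (SD, n = 3 each). Its corepressor genes Rcor1 and Rcor2 stood at 13.4 and 33.5 FPKM over the 6 libraries. Among the activators Pax6 stood at 2.11 ± 0.224 and 1.93 ± 0.193 FPKM, Foxa2 at 1.63 ± 0.416 and 1.80 ± 0.478, and Nkx2-2 at 1.19 ± 0.181 and 1.01 ± 0.131 (SD, n = 3 each). In contrast, Neurod1, Pax4, Neurog3, Rfx6 and Cdx2 had 0 counts in all 6 libraries. The part of these regulators in the levels of the 10 genes was not tested.

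The 12 enteroendocrine markers, of which 3 were present as given above, summed to 108 to 191 CPM in shControl and 141 to 184 CPM in shIRS2, and 3 of them (Chga, Chgb and Scg2) are among the 10. Of 14 intestinal epithelial markers 3 were present, led by Krt8 at 202 FPKM, and Epcam had 1 count over the 6 libraries and Cdx2 had 0. The list summed to 390 to 414 CPM in shControl and 386 to 425 CPM in shIRS2.

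Markers of fibroblasts were divided. Of 16 fibroblast markers 11 were present, led by Vim at 408 FPKM, Sparc at 86.9, Col3a1 at 74.6 and Col5a1 at 36.2, while Col1a2, counted as present, stood at 0.295 FPKM. Other markers of the list were nearly absent, with Acta2 at 0.0667 FPKM, Dcn at 0.0433 and Col1a1 at 0.0311 (20 counts), and Thy1 and Postn had 0 counts. This list summed to 3354 to 4031 CPM in shControl and 4047 to 4154 CPM in shIRS2, ranges that do not overlap. Neural markers were present in 5 of 14, at 42.2 to 55.2 CPM summed over the list across all libraries, and immune and endothelial markers in 2 of 12, at 5.24 to 7.40 CPM. Beside these marker counts, 49.6% of all protein-coding genes were present. The part of any other cell type in the levels of the 10 genes was not tested.

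The libraries differ by replicate number, and neither Cpe nor Pam was called for that difference. In a fit with group and number, edgeR's F-test between the 3 numbers called 2638 of 13472 genes (19.6%), and 0 of the 2 tested genes of the set. With only 2 genes tested, 0 calls does not set them apart from the share over all genes. The adjusted p was 0.664 for Cpe and 0.313 for Pam. The libraries numbered 2 differed from those numbered 1 by a log2 value of 0.05 (SE 0.07) for Cpe and -0.00 (SE 0.07) for Pam, and those numbered 3 by -0.04 (SE 0.07) and 0.13 (SE 0.07). What a number stands for is not given in the labels.

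Around the 2 genes, several genes of other lists differed by number, beside the 19.6% of all genes. Of 11 tested granule formation genes 4 were called, and all 4 were lower in the libraries numbered 2 than in the others on average, among them Ptprn, Rab3d and Hid1. For Ptprn the libraries numbered 3 were high and those numbered 1 and 2 were alike within each group. Hid1, a Golgi factor for granule sorting, had 1.13 and 1.25 FPKM in the libraries numbered 2 and 1.83 to 2.64 in the other 4, with an adjusted edgeR p of 0.00168. Of the 17 proton pump genes 8 were called, all lower in the libraries numbered 2, among them Atp6v0b at a log2 difference of -0.46. Of 9 tested genes of the trimming list 2 were called, Cyb561 and Cpm, at log2 differences of -0.52 and -1.45. Tph1 was the only call among the 4 tested precursor and amine synthesis genes and was lower, at -0.89. Of 12 tested substrates of constitutive convertases 5 were called, 3 higher in the libraries numbered 2, among them Met at 0.63, and 2 lower, Lrp1 and Tgfb1. Of 22 tested genes for entry into the endoplasmic reticulum 1 was called, Ssr1, which was higher. Of 19 tested coat genes 1 was called, Cope, which was lower. Among the 5 tested other convertases and the 8 tested regulators 0 were called. By comparison 1375 of the 2638 genes called were lower in the libraries numbered 2. Without the shControl library numbered 2 the F-test called 798 genes in all, and without the shIRS2 library numbered 2 it called 973.

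**Figure D5:**
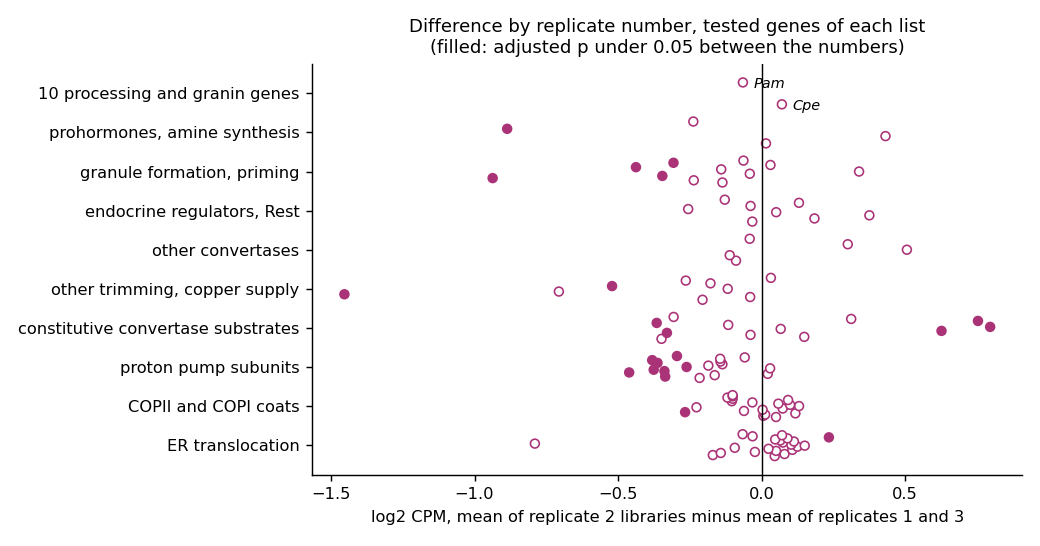
Difference in log2 CPM between the mean of the libraries numbered 2 and the mean of those numbered 1 and 3 for the tested genes of each list, where a point is a gene and filled points passed the F-test between numbers at an adjusted p under 0.05. Cpe and Pam lie near 0 with open symbols, while 8 filled proton pump genes lie to the left.

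Cpe and Pam also varied differently from each other across the 6 libraries. The Pearson correlation of their log2 CPM was 0.222 (n = 6). In a comparison with 10113 genes averaging 5 CPM or more, Cpe was most like Dock5 (r = 0.984) and Ptgs2 (r = 0.983), and Pam most like Col3a1 (r = 0.992) and Inpp5e (r = 0.991). These are the highest of many correlations over 6 libraries that share depth and replicate number, and they serve as description only. The ratio of Cpe to Pam in FPKM was 3.90 ± 0.314 in shControl and 3.66 ± 0.276 in shIRS2 (SD, n = 3 each), with an exact permutation p of 0.4.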

How the data were processed

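RNA was taken from 6 libraries of Glu-tag cells, enriched by poly(A) selection or ribosomal depletion, and sequenced from strand-specific dUTP libraries as 150 bp paired ends (per the labels' protocols). Per the submitters' processing notes, the build is mm10. For the aligner, the counter and its strand setting, a name is not given in the sources used here. The authors deposited raw counts per gene and, separately, FPKM values, whose implied library total was 0.985 to 1.02 times the count sum. The columns beginning NC were read as sh-control and those beginning S as sh-IRS2, from their names alone, and 0 columns were unused.

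Counts were tested in R 4.3.3 with edgeR 4.0.16 (filterByExpr, TMM, robust quasi-likelihood, group as the only term), with p-values adjusted by Benjamini-Hochberg over all 13472 genes tested. The F-test between replicate numbers added the number as a term. All tests were two-sided, and scripts were tested on simulated data. Alternatives were RLE scaling, no filter, DESeq2 1.42.0, limma 3.58.1 on counts and on log2 FPKM, the replicate block and leaving out libraries. Deviations of same-numbered libraries from their group means correlated at 0.167, 0.576 and 0.260. The main fit and the permutation tests still left the number out, and the replicate block was run as an alternative. The labels call the replicates biological without naming separate cultures, so the p-values speak only of the spread among these libraries, which may be technical.

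The 10 genes and the other 9 lists and 5 marker lists were chosen with earlier results of these data known. All 10 genes were named. In each other list up to 5 genes of highest mean FPKM (4 for markers) and genes called in a test were named, and genes named for 0 counts, or outside these rules, were chosen after their values were seen. Some genes that the rule would name are not reported here. Of the list symbols 2 matched no row.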

Additional observations from a re-analysis of the deposited data

How the results depend on the processing

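The 10 genes gave the same account under each alternative run. The number present stayed at 2 at 0.5 CPM, 5 CPM or 1 FPKM and without each library in turn. The log2 fold change between the groups stayed positive for Cpe (0.02 to 0.09) and Pam (0.09 to 0.20) in all 14 alternatives. The lowest adjusted p was 0.865 for Cpe and 0.504 for Pam, both from edgeR with the replicate block. Thus 0 of the tested genes of the set passed in any alternative. Counts over all genes moved. Between the groups edgeR called 6 genes without a filter on low counts and 1 with the replicate block, and DESeq2 called 2, against 0. With the replicate block no call for a gene of the set changed. Between replicate numbers DESeq2's likelihood ratio test called 1641 genes against 2638, and leaving out single libraries gave 798 to 3774. Depth limits the 8 low genes: 0 counts in a single library allows 0.152 to 0.200 CPM, and no fold change between the groups can be given for them.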
